A study of Mus musculus with 20 samples.

Results

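The comparison described here set Il6ra-deficient mouse CD4 T cells against wild-type CD4 T cells after a Th17 culture driven by hyper-IL-6. It rests on 4 of the 20 libraries of the series, 2 labelled Il6ra-/- and 2 labelled wild type, chosen by their source names. The deficient cells carried the IL6Ra-/- and IL-17F/Thy1.1 Hz alleles and the wild-type cells IL-17F/Thy1.1 Hz alone, and both were of strain C57BL/6. Per the labels' protocols, sorted naive cells of each genotype were grown for 6 days with irradiated antigen-presenting cells, hyper-IL-6 at 63 ng/ml and TGF-beta at 2.5 ng/ml. They were then stimulated with PMA and ionomycin for 4 h and sorted as CD4+ Thy1.1+ cells, the Thy1.1 reporter standing for Il17f. The same part of the series held wild-type cells grown with IL-6 at 20 ng/ml in place of hyper-IL-6 and naive cells of both genotypes (2 libraries each), and these 10 libraries were fitted together. The naive cells were not cultured and are recorded with 4 h of stimulation too. The other 10 libraries came from a transfer experiment, of which the 4 sequenced before transfer are used below. The labels do not say whether replicates came from separate mice or cultures, so the p-values cover only library-to-library spread, which may be technical.

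IL-6 reaches T cells by binding its receptor alpha chain, the product of Il6ra, and the pair then joins the shared signalling chain gp130, the product of Il6st. JAK kinases bound to gp130 phosphorylate STAT3, which with TGF-beta signals turns on the Th17 cytokines IL-17A, IL-17F and IL-21. Hyper-IL-6 is IL-6 fused to the soluble alpha chain. It binds gp130 directly and so acts on cells that lack an alpha chain of their own.

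Gene counts summed to 34950754 and 35859379 in the libraries labelled Il6ra-/- and to 41184982 and 36836117 in the wild-type libraries, within the range of 20160774 to 46848016 over the 10 libraries. All levels are TMM-scaled CPM, a gene's count relative to its library's total, given for replicate 1 and then replicate 2. All 12 CD4 T cell markers had reads in each of the 4 libraries, with a summed level of 3604 and 4151 CPM in the libraries labelled Il6ra-/- and of 3516 and 3558 CPM in the wild-type libraries. Summed myeloid markers (18 genes) were at 62.8 and 77.1 CPM, against 87.8 and 62.3 CPM, and summed B cell markers (11 genes) at 9.28 and 10.9 CPM, against 11.4 and 9.43 CPM. CD8, NK and gamma-delta T cell markers (13 genes) summed to 23.7 and 19.4 CPM, against 21.2 and 22.8 CPM, and 6 erythroid markers together to at most 0.143 CPM in any of the 4 libraries. Mitochondrial transcripts took 1.13% and 1.07% of counts, against 1.06% and 1.01%. In such bulk libraries, fewer cells of a type and less RNA per cell cannot be told apart.

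The genotype labels were checked first. Il6ra itself gave 32.3 and 31.8 CPM in the libraries labelled Il6ra-/- and 39.8 and 39.1 CPM in wild-type libraries. In naive cells it gave 199 and 213 CPM in Il6ra-/- libraries and 270 and 422 CPM in wild-type libraries. Reads of the gene thus remained in every library labelled Il6ra-/-. The sources used here do not say which part of the gene was deleted, so its count checks no label.

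Genes whose values did not overlap between the naive genotypes gave another reading, and at several of them 2 cultured libraries went against their labels. Nefh, the heavy neurofilament gene on chromosome 11, had 8.68 and 8.53 CPM in naive Il6ra-/- libraries and 0.244 and 0.424 CPM in naive wild-type libraries. Its unadjusted p between naive genotypes was 0.0591 in edgeR on the 10 libraries. After culture it had 74.9 CPM in the library labelled Il6ra-/- replicate 1 and 2.91 CPM in the library labelled Il6ra-/- replicate 2, against 2.43 and 2.29 CPM in the wild-type hyper-IL-6 libraries. The wild-type IL-6 libraries had 2.44 CPM in replicate 1 and 75.7 CPM in replicate 2. At Nefh, replicate 2 of the Il6ra-/- label therefore sat with wild type, and replicate 2 of the wild-type IL-6 label sat with replicate 1 of the Il6ra-/- label.

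The same split was seen at other genes. Tcn2, the vitamin B12 carrier transcobalamin, had 11.0 and 10.5 CPM in naive Il6ra-/- libraries and 34.9 and 35.9 CPM in naive wild-type libraries. In culture it had 1.37 and 5.94 CPM in the libraries labelled Il6ra-/-, against 5.86 and 5.24 CPM in wild-type hyper-IL-6 libraries and 5.09 and 1.13 CPM in wild-type IL-6 libraries. Synj2, a phosphoinositide phosphatase gene on chromosome 17, had 7.74 and 18.7 CPM, against 26.4 and 27.1 CPM and, with IL-6, 20.1 and 7.41 CPM. Slc35e4, a solute carrier gene on chromosome 11, had 6.43 and 14.98 CPM, against 15.6 and 14.7 CPM and, with IL-6, 13.99 and 5.57 CPM. At each of these genes the lowest or highest values were those of the libraries labelled Il6ra-/- replicate 1 and wild-type IL-6 replicate 2.

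Over all genes with at least 2 CPM in 1 of the 6 cultured libraries, that pair lay at least 1 log2 unit outside the other 4 libraries at 17 genes. The pair labelled Il6ra-/- did so at 1 gene, and the largest number for any other of the 15 pairs was 5. Of the 17 genes, 11 had naive genotypes that did not overlap (37.5% of all 14926 genes did not), 10 of them in the same direction, and 6 lay on chromosome 11 below 12 Mb. These genes were picked after their values were seen. Marker rules that set each cultured library beside the naive levels did not show this split. The strictest one, an adjusted p under 0.05 between naive genotypes, found 1 marker, the pseudogene Pisd-ps1, the gene that passed in edgeR (0.0067% of 14926 genes, with 1554 or 10.4% at an unadjusted p under 0.05, 4.43% higher and 5.98% lower, and 95 called by DESeq2). The edgeR test shared its spread estimate with the cultured libraries, so a gene split among those was less likely to pass. With the naive libraries fitted alone, edgeR called Nefh, Tcn2, Synj2, Camk2b and Pisd-ps1 (adjusted p from 0.00828 to 0.0168). Pisd-ps1 had 56.2 and 49.3 CPM in naive Il6ra-/- libraries and 10.2 and 11.0 CPM in naive wild-type libraries. In culture Pisd-ps1 had 14.7 and 23.8 CPM in the libraries labelled Il6ra-/-, against 18.8 and 18.6 CPM and, with IL-6, 18.7 and 12.7 CPM. Of the libraries labelled Il6ra-/-, replicate 2 and not replicate 1 was thus nearer to naive Il6ra-/-. The 2 lowest cultured values were again those of Il6ra-/- replicate 1 and wild-type IL-6 replicate 2, but naive Il6ra-/- was the higher genotype. By a looser rule, replicate 1 was nearer to naive Il6ra-/- at 11 of 23 markers and replicate 2 at 7, against 9 and 9 for the wild-type hyper-IL-6 libraries and 6 and 10 for the wild-type IL-6 libraries. With chromosome 11 genes alone the counts were 9 and 8 of 24, against 8 and 9 and, with IL-6, 8 and 9. By this distance to naive levels neither rule separated the cultured genotypes. It could not where all 6 cultured libraries lay on 1 side, as at Tcn2 (nearer naive Il6ra-/-) and Slc35e4 (nearer naive wild type). On the cultured scale, Il6ra-/- replicate 1 lay at least 1 log2 unit from wild-type hyper-IL-6 at 4 markers of each rule. Nearer to wild type were Il6ra-/- replicate 2 at 4 and 3 of them, wild-type IL-6 replicate 1 at all, and replicate 2 at 0. Values of Il6ra-/- replicate 1 picked these markers.

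Camk2b, a kinase gene with 30.6 and 29.9 CPM in naive Il6ra-/- libraries and 2.297 and 3.52 CPM in naive wild-type ones, had 0.587 and 0.354 CPM in the cultured libraries labelled Il6ra-/-, against 0.214 and 0 CPM and, with IL-6, 0.084 and 1.54 CPM. The highest of these low values were again those of Il6ra-/- replicate 1 and wild-type IL-6 replicate 2. No library was moved to another group. Each result below keeps the deposited labels and gives both libraries labelled Il6ra-/-, and most fitted fold changes are followed by the value without replicate 2.

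**Figure D1:**
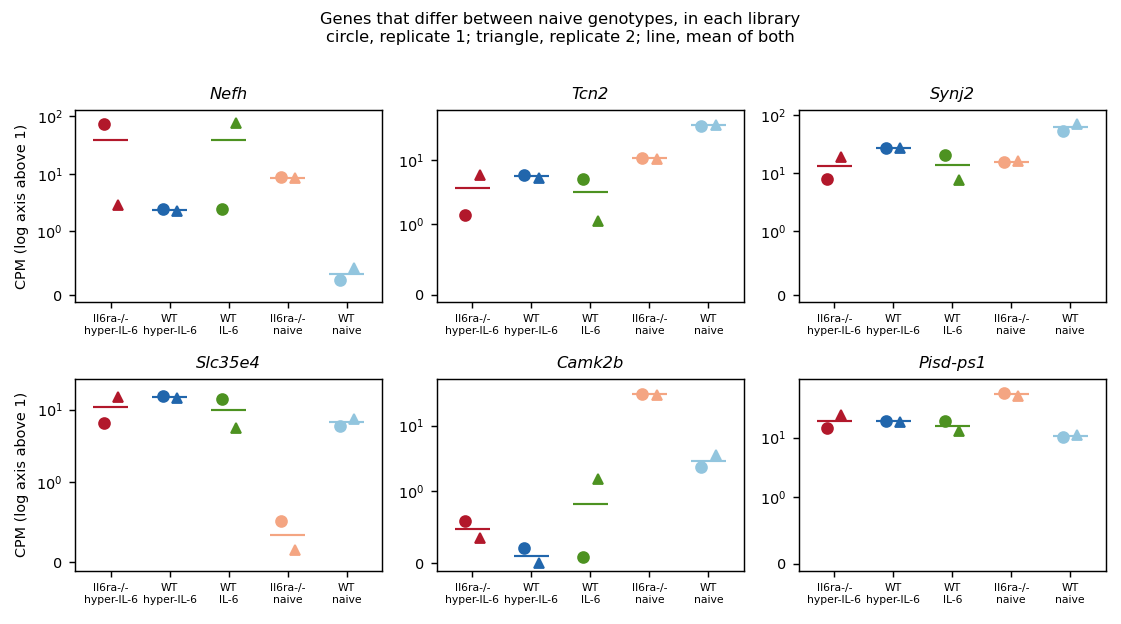
Levels in CPM (log axis above 1, linear below) of 6 genes whose values did not overlap between naive genotypes, in 2 libraries of each group, with the mean as a line. At Nefh the library labelled Il6ra-/- replicate 1 (74.9 CPM) and wild-type IL-6 replicate 2 (75.7 CPM) stand together, and the other 4 cultured libraries lie between 2.29 and 2.91 CPM.

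With the labels as deposited, no gene passed between the genotypes under hyper-IL-6. The libraries labelled Il6ra-/- lay further apart than those of the other cultured groups. Their mean chi-square per gene between replicates was 30.3, against 6.75 for wild-type hyper-IL-6 and 18.1 for wild-type IL-6. A group of mixed genotype would have a smaller contrast, so a lack of calls does not show that the genotypes are alike. The cause of the spread was not tested. Of 14926 genes tested, 0 had a Benjamini-Hochberg adjusted p under 0.05 in edgeR's quasi-likelihood test (0%), and 351 had an unadjusted p under 0.05 (2.35%), 140 higher (0.938%) and 211 lower (1.41%) in the libraries labelled Il6ra-/-. DESeq2 on the same libraries called 3 genes (0.0201%), Stat4, Ms4a6b and Pdlim5. The smallest unadjusted p-values belonged to genes at which both libraries labelled Il6ra-/- were alike and both wild-type hyper-IL-6 libraries stood apart. Small p-values favour such genes. Groups did not overlap at 4664 genes (31.2%), 2390 higher (16%) and 2274 lower (15.2%). Without the library labelled Il6ra-/- replicate 2, edgeR called 0 genes (0%, 300 at an unadjusted p under 0.05, 1.93%) and DESeq2 4, the same 3 and Satb1 (0.0257%). Without replicate 1, edgeR called 0 (0%, 802 at an unadjusted p under 0.05, 5.16%).

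Stat4, which carries IL-12 and IL-23 signals and lies on chromosome 1 (GRCm38 51987148 to 52107189), had the smallest p. It had 49.9 and 50.2 CPM in the libraries labelled Il6ra-/-, against 29.6 and 33.2 CPM in wild-type hyper-IL-6 libraries, groups that did not overlap. The log2 fold change was 0.67 ± 0.09 (SE; edgeR adjusted p = 0.30, DESeq2 adjusted p = 1.58e-05), and 0.66 ± 0.12 without replicate 2. The wild-type IL-6 libraries had 44.3 and 47.7 CPM, nearer to the libraries labelled Il6ra-/-. The comparison of IL-6 with hyper-IL-6 uses the same wild-type hyper-IL-6 libraries, so the values are only set side by side here and below.

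Other genes with small p-values were named after their values were seen, and none passed in edgeR. They were taken only from genes at which the groups did not overlap, so their standing apart was fixed by the choice. Ms4a6b, a membrane protein gene of the MS4A family, had 83.1 and 77.5 CPM in the libraries labelled Il6ra-/-, against 55.7 and 52.1 CPM in wild type (log2 fold change 0.57 ± 0.10, edgeR adjusted p = 0.728, DESeq2 adjusted p = 0.000167, and 0.62 ± 0.12 without replicate 2). Sla, an adaptor that dampens T cell receptor signalling, had 158 and 153 CPM, against 98.5 and 111 CPM (0.57 ± 0.12, and 0.59 ± 0.15 without replicate 2). Satb1, a chromatin organiser of T cells, had 228 and 190 CPM, against 146 and 156 CPM (0.47 ± 0.11, and 0.58 ± 0.11 without replicate 2). These 3 genes, and Gpr65, a proton-sensing receptor linked to Th17 cells (90.1 and 89.8 CPM, against 57.8 and 66.0 CPM, 0.54 ± 0.12, and 0.53 ± 0.16 without replicate 2), had higher values in every library labelled Il6ra-/-. Their wild-type IL-6 values were 77.0 and 72.8 CPM for Ms4a6b, 133 and 154 CPM for Sla, 201 and 227 CPM for Satb1 and 81.3 and 83.0 CPM for Gpr65, above both wild-type hyper-IL-6 values in each case.

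On the lower side, Pdlim5, a scaffold protein gene, had 143 and 160 CPM in the libraries labelled Il6ra-/-, against 240 and 243 CPM in wild type (log2 fold change -0.67 ± 0.11, edgeR adjusted p = 0.728, DESeq2 adjusted p = 0.00150, and -0.76 ± 0.14 without replicate 2). Kit, the stem cell factor receptor, had 14.1 and 13.1 CPM, against 27.1 and 21.4 CPM (-0.83 ± 0.16, and -0.79 ± 0.21 without replicate 2). Nt5e, the ectoenzyme CD73 that makes adenosine, had 173 and 163 CPM, against 239 and 246 CPM (-0.53 ± 0.14, and -0.49 ± 0.18 without replicate 2). By the choice stated above, both libraries labelled Il6ra-/- lay below both wild-type libraries at all 3 genes. The wild-type IL-6 libraries had 194 and 156 CPM of Pdlim5, 12.2 and 13.9 CPM of Kit and 191 and 204 CPM of Nt5e, again below both hyper-IL-6 values.

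Further genes of this kind had smaller levels or folds. Ldlrad4, an inhibitor of TGF-beta signalling, had 3.80 and 3.79 CPM in the libraries labelled Il6ra-/- and 7.19 and 7.38 CPM in wild type (log2 fold change -0.94 ± 0.19, and -0.94 ± 0.25 without replicate 2). Fam83g had 48.0 and 55.8 CPM, against 82.4 and 75.2 CPM (-0.60 ± 0.13, and -0.72 ± 0.16 without replicate 2). The calcium-regulated factors Nfatc1 (346 and 318 CPM, against 439 and 405 CPM, -0.35 ± 0.09, and -0.30 ± 0.10 without replicate 2) and Nfatc2 (92.9 and 87.7 CPM, against 118 and 124 CPM, -0.42 ± 0.10, and -0.39 ± 0.13 without replicate 2) also did not overlap. DESeq2 on the 3 cultured groups called 23 genes (0.166%, 8 higher and 15 lower), among them these 4 genes, Stat4, Ms4a6b, Sla, Satb1, Gpr65, Pdlim5, Kit, Nt5e, Tgfbr1 and Maf. On the 4 compared libraries alone it called 21 (0.155%, 9 higher and 12 lower), with Ccr7 and without Ldlrad4, Nfatc1 and Maf.

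**Figure D2:**
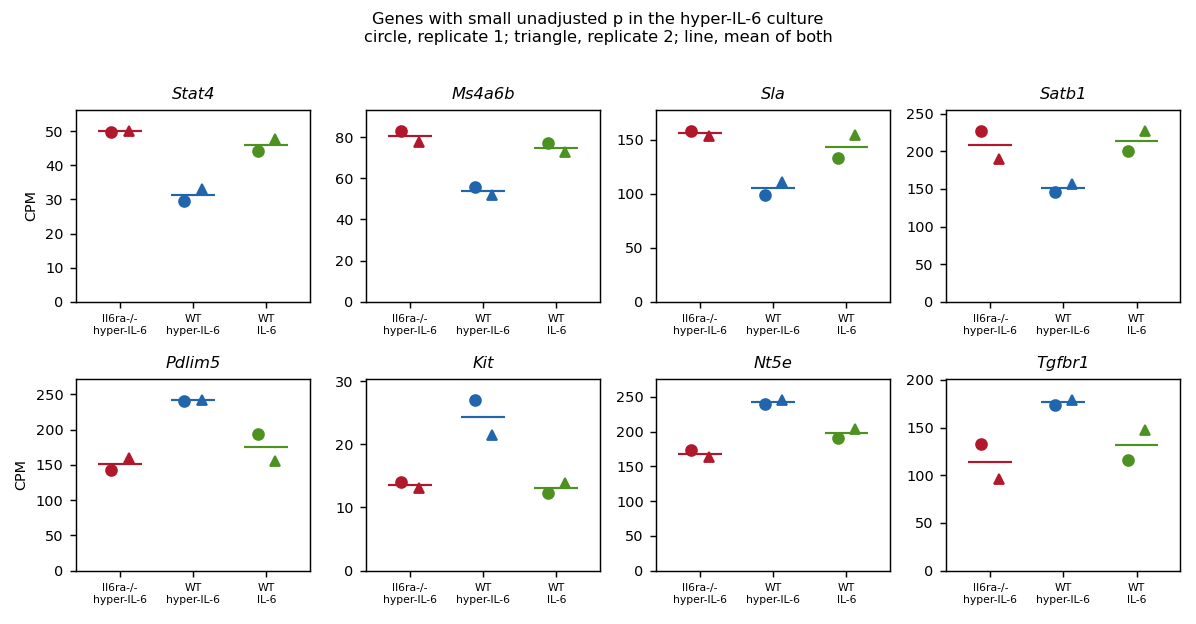
Levels in CPM of 8 genes with small unadjusted p-values, in 2 libraries of each cultured group, with the mean as a line. For Stat4, both libraries labelled Il6ra-/- (49.9 and 50.2 CPM) lie above both wild-type hyper-IL-6 libraries (29.6 and 33.2 CPM), and the wild-type IL-6 libraries (44.3 and 47.7 CPM) lie in between.

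No gene of the IL-6 receptor and its signalling chain passed. Of 13 tested genes of the IL-6 receptor family and its sheddases, 0 had an unadjusted p under 0.05, and their median log2 fold change was -0.05 (all genes, 0.00). The groups did not overlap at 5 of the 13, all lower in the libraries labelled Il6ra-/-, beside 31.2% of all genes (15.2% lower). Without replicate 2 the median over 14 tested genes was -0.035. Il6st, the gp130 gene, had 71.0 and 51.1 CPM in the libraries labelled Il6ra-/-, against 67.4 and 60.3 CPM in wild type, overlapping values. Stat3 had 203 and 242 CPM, against 209 and 209 CPM. The kinase gene Jak1 had 293 and 244 CPM, against 268 and 266 CPM, and Adam17, the protease that sheds the alpha chain, 121 and 120 CPM, against 125 and 122 CPM. Il6ra had a log2 fold change of -0.30 ± 0.18 (edgeR unadjusted p = 0.119), and of -0.30 ± 0.23 without replicate 2.

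Genes that STAT3 is known to induce gave no call either. Of 17 tested members, 0 had an unadjusted p under 0.05 in either direction, and the median log2 fold change was 0.06. Without replicate 2 the median was 0.045. Socs3, the feedback inhibitor of gp130 signalling, had 26.8 and 29.0 CPM in the libraries labelled Il6ra-/-, against 22.8 and 27.4 CPM in wild type (log2 fold change 0.15 ± 0.23, and 0.08 ± 0.29 without replicate 2). Bcl3, an NF-kappaB co-regulator, had 46.0 and 51.9 CPM, against 45.8 and 47.2 CPM, and Icam1, an adhesion molecule, 51.9 and 55.4 CPM, against 58.5 and 65.4 CPM. Batf, an AP-1 factor of Th17 cells, had 75.0 and 106 CPM, against 69.5 and 67.2 CPM (0.41 ± 0.29, and 0.13 ± 0.34 without replicate 2), the higher value coming from replicate 2.

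The promoters of these targets were searched for a motif that STAT proteins can bind. RefSeq promoter windows of GRCm38.p6 matched all 18 listed targets, and the 250 bases before the start held the STAT motif TTCNNNGAA, which reads the same on both strands, in 5 of 20 windows (25.0%), against 2306 of 32851 windows of all genes (7.02%). More than 1 of the 5 windows belonged to Bcl6, so 25.0% is a share of windows and not of targets. Such a match is a description of the letters only, and binding was not measured. In the annotation used for the counts Socs3 spans 117966079 to 117970047, so its window lies inside the gene and precedes only the RefSeq start. The windows of Socs3 (chr11:117969367-117969616, minus strand) and Icam1 (chr9:21015690-21015939, plus strand) are shown as 2 targets with 1 motif each, 154 and 42 bases before the RefSeq start, with the motif in capitals.
Socs3: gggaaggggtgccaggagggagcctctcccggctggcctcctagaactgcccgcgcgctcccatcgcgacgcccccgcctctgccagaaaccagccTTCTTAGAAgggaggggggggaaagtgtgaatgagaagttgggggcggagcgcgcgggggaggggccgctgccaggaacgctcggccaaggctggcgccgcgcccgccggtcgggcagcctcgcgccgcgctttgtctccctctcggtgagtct
Icam1: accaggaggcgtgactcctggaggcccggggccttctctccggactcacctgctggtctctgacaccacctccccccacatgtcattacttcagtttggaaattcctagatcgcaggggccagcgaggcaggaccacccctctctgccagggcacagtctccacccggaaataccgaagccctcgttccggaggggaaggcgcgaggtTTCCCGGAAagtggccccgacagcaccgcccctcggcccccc
Socs3 and Icam1 both had the motif and neither passed.

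The Th17 cytokine genes were expressed in all 4 libraries, and the 2 libraries labelled Il6ra-/- differed from each other by more than replicate 1 differed from the wild-type mean. Il17a had 1714 and 2815 CPM in the libraries labelled Il6ra-/-, against 1400 and 1508 CPM in wild type (log2 fold change 0.64 ± 0.23, edgeR unadjusted p = 0.0225, adjusted p = 1). Without replicate 2 the fold change was 0.23 ± 0.21. Il17f, the gene whose reporter was used to sort the cells, had 632 and 1064 CPM, against 588 and 640 CPM (0.47 ± 0.23, and 0.03 ± 0.20 without replicate 2). Il21 had 479 and 585 CPM, against 408 and 381 CPM (0.43 ± 0.20, and 0.27 ± 0.24 without replicate 2). Replicate 2 gave the highest of the 4 values for each of these 3 cytokines.

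At 4 receptors and regulators of the lineage the edgeR unadjusted p was above 0.05. Il23r, the IL-23 receptor chain, had 14.6 and 21.4 CPM in the libraries labelled Il6ra-/-, against 13.2 and 11.3 CPM in wild type (0.56 ± 0.35 on the log2 scale, 0.25 ± 0.43 without replicate 2 and 0.81 without replicate 1). Il1r1, the IL-1 receptor, had 138 and 156 CPM, against 134 and 120 CPM (0.21 ± 0.14, 0.11 ± 0.17 without replicate 2 and 0.13 without wild-type replicate 2). Rora, a nuclear receptor that takes part in Th17 differentiation, had 329 and 272 CPM, against 343 and 319 CPM, values that overlapped. Maf, a driver of IL-10 in Th17 cells, had 188 and 188 CPM, against 236 and 246 CPM (-0.36 ± 0.17, edgeR unadjusted p = 0.0599, and -0.37 ± 0.22 without replicate 2), groups that did not overlap. DESeq2 on the 3 cultured groups called Maf (adjusted p = 0.0383).

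Of the 20 genes of the Th17 programme list, 2 had an unadjusted p under 0.05, both higher, beside 0.938% of all genes, Il17a and Tmem176a, an ion channel-like protein gene (0.40 ± 0.14, and 0.33 ± 0.18 without replicate 2). The list's median log2 fold change was 0.20 (all genes, 0.00). By library, the median of log2 CPM minus the wild-type mean was 0.10 in replicate 1 and 0.22 in replicate 2. In the wild-type IL-6 libraries it was 0.131 and 0.105. The list's median log2 fold change was 0.091 without replicate 2 and 0.222 without replicate 1.

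**Figure D3:**
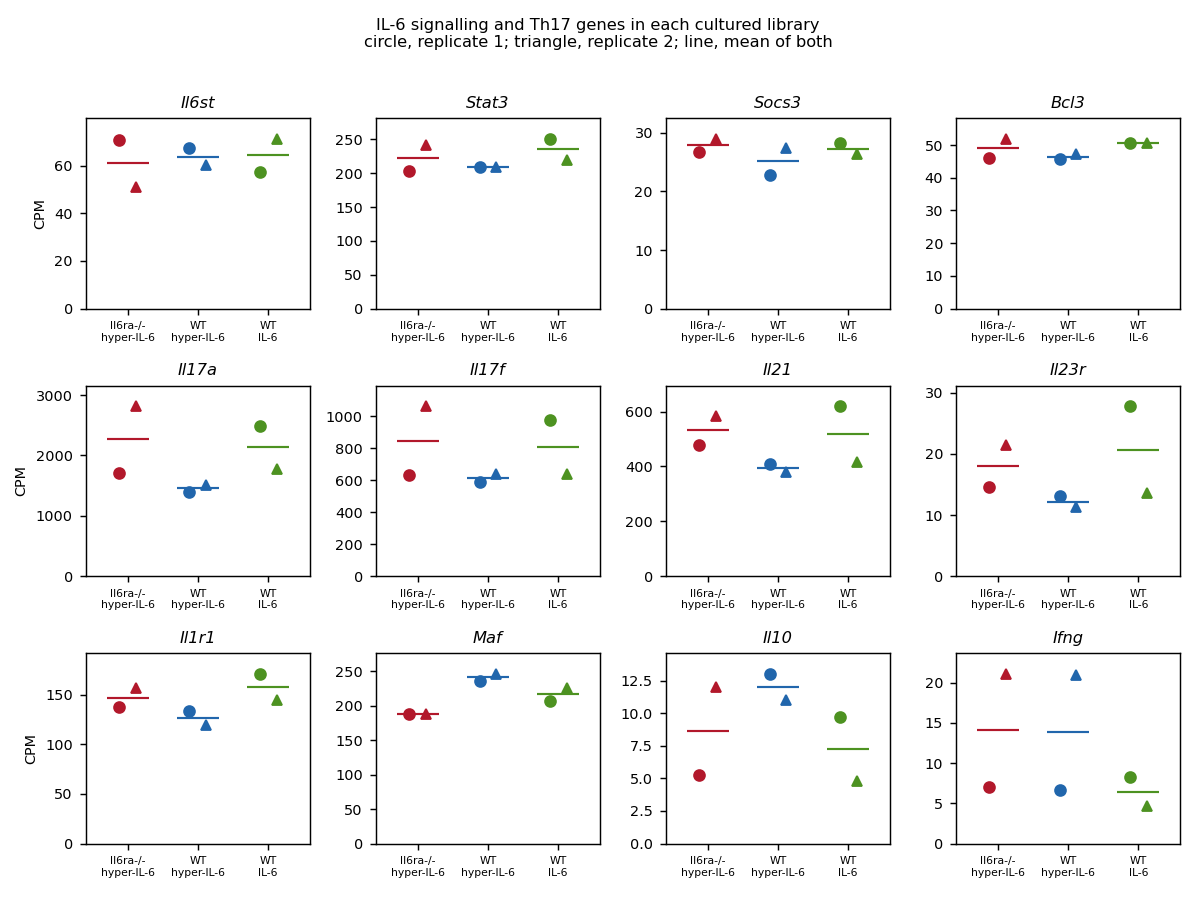
Levels in CPM of 12 genes of IL-6 signalling and the Th17 lineage, in 2 libraries of each cultured group, with the mean as a line. Il17a reaches 2815 CPM in the library labelled Il6ra-/- replicate 2 and 1714 CPM in replicate 1, against 1400 and 1508 CPM in wild type, and Il6st overlaps between genotypes.

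Genes tied to pathogenic and non-pathogenic Th17 states had medians on opposite sides of 0. By library, the pathogenic median over the wild-type hyper-IL-6 mean was 0.119 and 0.536, and 0.285 and -0.146 in wild-type IL-6 libraries. The non-pathogenic median was -0.315 and -0.318, and -0.295 and -0.24 in wild-type IL-6 libraries. Of 19 genes of the pathogenic list, 3 were higher at an unadjusted p under 0.05 and 0 lower (0.938% and 1.41% of all genes), with a median log2 fold change of 0.21. They were Stat4, the inhibitory receptor Lag3 (303 and 370 CPM, against 256 and 254 CPM, 0.40 ± 0.13, and 0.24 ± 0.13 without replicate 2) and the chemokine Ccl4 (59.8 and 94.9 CPM, against 49.6 and 60.4 CPM, 0.49 ± 0.21, 0.11 ± 0.19 without replicate 2 and 0.79 without replicate 1). Without replicate 2 the list's median was 0.06, and without replicate 1 it was 0.54. Csf2, the GM-CSF gene, had 1.76 and 5.28 CPM, against 2.76 and 4.16 CPM, and Tbx21, the Th1 factor T-bet, 13.6 and 16.2 CPM, against 7.81 and 19.9 CPM. Il22 had 0.615 and 1.498 CPM, against 0.453 and 1.32 CPM. The 2 wild-type libraries lay further apart than the genotype means at all 3 of these genes.

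Of 9 genes of the non-pathogenic list, 0 were higher and 1 was lower at an unadjusted p under 0.05 (1.41% of all genes), and 8 fold changes were below 0, with a median of -0.36. The lower member was Ikzf3, the factor Aiolos, with 91.6 and 61.2 CPM, against 115 and 107 CPM (-0.54 ± 0.19, -0.29 ± 0.18 without replicate 2 and -0.86 without replicate 1). The fold change of Il10 was -1.19 without replicate 2 and 0.003 without replicate 1. The list's median was -0.37 without replicate 2 and -0.32 without replicate 1. Il10, the anti-inflammatory cytokine, had 5.28 and 12.0 CPM, against 13.03 and 11.0 CPM, so that replicate 1 alone lay below wild type.

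TGF-beta signalling genes had a median of -0.17. Of 16 tested, 0 were higher and 2 lower at an unadjusted p under 0.05 (1.41% of all genes), and 13 fold changes were below 0. Tgfbr1, the type I receptor, had 132 and 96.2 CPM in the libraries labelled Il6ra-/-, against 174 and 180 CPM in wild type (-0.63 ± 0.16, and -0.43 ± 0.17 without replicate 2). Lrrc32, which presents latent TGF-beta at the cell surface, had 2.52 and 2.83 CPM, against 4.67 and 5.27 CPM (-0.89 ± 0.28, and -0.99 ± 0.37 without replicate 2). Both groups stood apart at these 2 genes. The list's median was -0.084 without replicate 2 and -0.319 without replicate 1. By library, over the wild-type hyper-IL-6 mean, it was -0.137 and -0.03 in wild-type IL-6 libraries. The ligand gene Tgfb1 had 311 and 364 CPM, against 380 and 370 CPM, and the signal transducer Smad2 84.8 and 77.2 CPM, against 87.0 and 79.0 CPM.

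Of 17 regulatory T cell genes, 0 were higher and 3 lower at an unadjusted p under 0.05 (1.41% of all genes), Nt5e, Lrrc32 and Ikzf2, the factor Helios (1.17 and 1.39 CPM, against 2.43 and 1.79 CPM, -0.72 ± 0.31, and -0.85 ± 0.41 without replicate 2). Foxp3, the defining factor, had 5.56 and 4.25 CPM, against 5.86 and 5.51 CPM (-0.21 ± 0.27, -0.04 ± 0.33 without replicate 2 and -0.42 without replicate 1). Inhibitory receptor genes had a median of 0.23, with 3 of 11 higher and 0 lower at an unadjusted p under 0.05 (0.938% of all genes higher). Besides Lag3 these were Btla (303 and 298 CPM, against 236 and 258 CPM, 0.28 ± 0.08, and 0.29 ± 0.10 without replicate 2) and Cd200 (631 and 658 CPM, against 513 and 536 CPM, 0.30 ± 0.12, and 0.26 ± 0.15 without replicate 2). Without replicate 2 the inhibitory receptor median was 0.10. By library, over the wild-type hyper-IL-6 mean, it was 0.124 and 0.314, and 0.092 and 0.145 in wild-type IL-6 libraries. Ctla4 had 265 and 305 CPM, against 204 and 229 CPM.

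The remaining T cell lists were counted at an unadjusted p under 0.05, which 0.938% of all genes met as higher and 1.41% as lower. The counts were 2 higher and 1 lower of 14 for naive and central memory cells and 2 higher of 12 for follicular helper cells. They were 1 higher and 1 lower of 8 for Th2 and 1 lower of 12 for the IL-2 and STAT5 axis. Of 20 chemokine receptor and integrin genes, 1 was higher and 1 lower. Ccr7, the lymph node homing receptor, had 238 and 171 CPM in the libraries labelled Il6ra-/-, against 125 and 147 CPM in wild type (0.59 ± 0.19, 0.80 ± 0.20 without replicate 2 and 0.33 without replicate 1). DESeq2 on the 4 compared libraries called Ccr7 (adjusted p = 0.0442). Foxo1, a factor of resting T cells, had 132 and 117 CPM, against 162 and 141 CPM (-0.28 ± 0.11, -0.21 ± 0.13 without replicate 2 and -0.18 without wild-type replicate 1), and Ccr4, a chemokine receptor, 151 and 129 CPM, against 170 and 177 CPM (-0.30 ± 0.10, and -0.20 ± 0.11 without replicate 2). Gata3, the Th2 factor, had 7.16 and 7.03 CPM, against 4.74 and 5.82 CPM (0.43 ± 0.18, 0.43 ± 0.23 without replicate 2 and 0.28 without wild-type replicate 1). Socs2, a STAT5 target, had 92.4 and 80.3 CPM, against 103 and 120 CPM (-0.37 ± 0.14, and -0.28 ± 0.16 without replicate 2). Of 24 interferon-stimulated genes, 1 was higher and 2 were lower, Irf8 (170 and 148 CPM, against 178 and 228 CPM, -0.35 ± 0.13, -0.27 ± 0.16 without replicate 2 and -0.16 without wild-type replicate 2) among the lower. Cd247, the zeta chain of the T cell receptor complex, had 308 and 320 CPM, against 259 and 253 CPM (0.30 ± 0.09, and 0.26 ± 0.10 without replicate 2).

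Th1 genes gave 1 of 17 higher at an unadjusted p under 0.05, which was Stat4 (0.938% of all genes were higher and 1.41% lower). Ifng, the Th1 cytokine, had 7.07 and 21.1 CPM, against 6.67 and 20.97 CPM, so its spread within each genotype was larger than its difference between them. Of the myeloid genes tested (12), 1 was lower, Mpeg1, a macrophage pore protein gene (0.335 and 0.436 CPM, against 3.24 and 0.975 CPM, -2.44 ± 0.76, -2.65 ± 1.07 without replicate 2 and -1.33 without wild-type replicate 1), beside the summed myeloid levels given above. Their part in the other results was not tested.

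Lists of cell metabolism, division and stress held no gene at an unadjusted p under 0.05. These were 22 glycolysis and hypoxia genes (median log2 fold change 0.08), 19 of oxidative phosphorylation (0.06), 22 of sterol synthesis (-0.01), 19 of the ATF4 and unfolded protein responses (0.05), 27 of the cell cycle (0.05), 18 of survival and death (0.01) and 26 induced by stimulation (0.01). For all 7 of these lists the medians by library lay on either side of 0. For glycolysis they were -0.01 in replicate 1 and 0.18 in replicate 2, and for the cell cycle -0.02 and 0.13. Pkm, a glycolytic enzyme, had 2022 and 2512 CPM, against 1998 and 1995 CPM, and Cdk1, a mitotic kinase, 75.4 and 93.8 CPM, against 75.0 and 81.7 CPM.

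**Figure D4:**
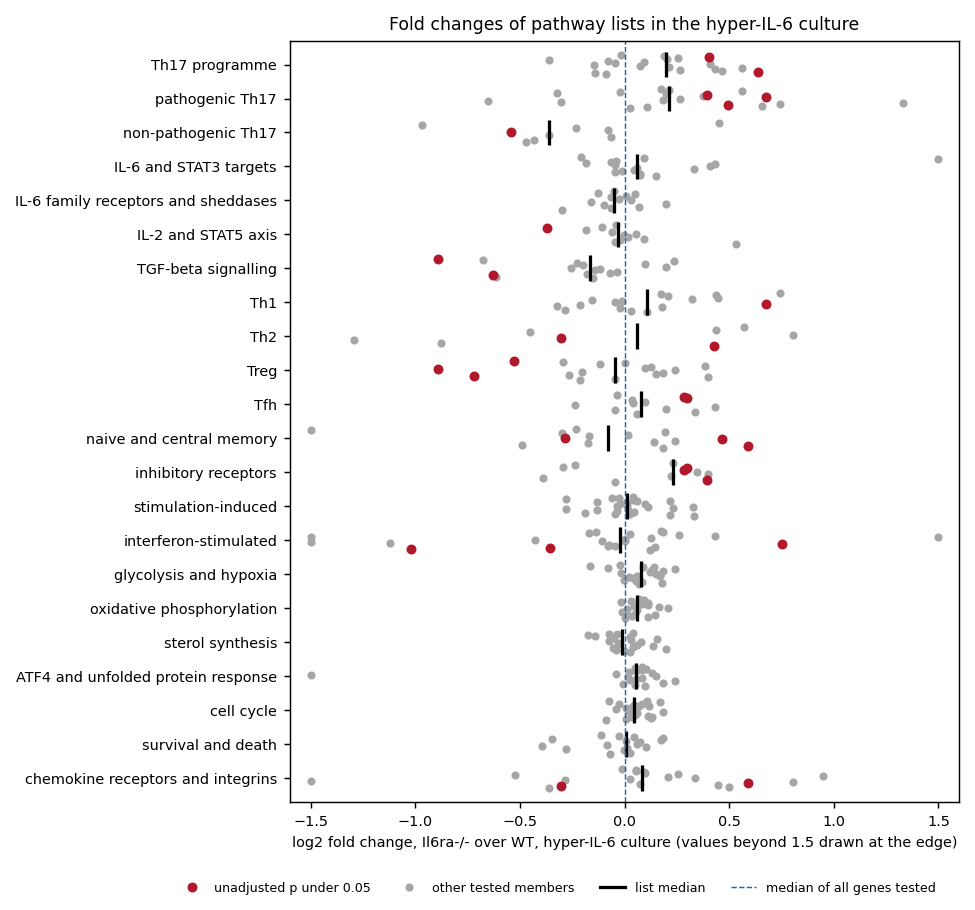
Fitted log2 fold changes, libraries labelled Il6ra-/- over wild type, of the tested members of 22 pathway lists (points, red at an unadjusted p under 0.05), with list medians as black lines and the median of all genes as a dashed line. The inhibitory receptor list has a median of 0.23 and the non-pathogenic Th17 list one of -0.36, and no gene passed after adjustment.

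Genes around Il6ra and at the start of chromosome 11 were counted apart. Of 363 tested genes within 20 Mb of Il6ra on chromosome 3, 7 were higher and 4 lower at an unadjusted p under 0.05 (3.03%, against 2.35% of all genes), and in naive cells 37 were (10.2%, against 10.4%). Of 96 genes on chromosome 11 below 12 Mb, 5 were higher and 0 lower (5.21%), and in naive cells 24 were (25%). Without the libraries labelled Il6ra-/- replicate 2 and wild-type IL-6 replicate 2, edgeR called 2 genes (0.013%), both in that stretch of chromosome 11 and both among the 17 genes picked above for setting these libraries apart, so the call adds no evidence. In that fit the lone library of the Il6ra-/- label is assumed to vary like the other groups. They were Nefh (4.97 on the log2 scale) and Pik3ip1 (2.64), an inhibitor of PI3 kinase with 3.33 and 0.409 CPM in the libraries labelled Il6ra-/-, against 0.548 and 0.501 CPM in wild type.

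In naive cells 7 of the 17 STAT3 targets were lower and 1 higher at an unadjusted p under 0.05 (5.98% and 4.43% of all genes), and none passed in edgeR. Socs3 had 121 and 118 CPM in naive Il6ra-/- libraries, against 369 and 199 CPM in naive wild-type libraries (log2 fold change -1.25, unadjusted p = 0.000187 in edgeR). Bcl3 had 33.3 and 30.3 CPM, against 145 and 42.6 CPM, and Stat3 267 and 279 CPM, against 471 and 310 CPM. Wild-type replicate 1 had the highest value at all 3, and ribosomal protein genes took 4.26% and 4.08% of counts in the Il6ra-/- libraries, against 5.80% in that library and 4.47% in wild-type replicate 2. The part of that library in these differences was not tested. Under hyper-IL-6 the groups overlapped at all 3. The interaction, the culture difference minus the naive difference, called 0 of 14926 genes in edgeR (0%, 1267 or 8.49% at an unadjusted p under 0.05, 4.55% higher and 3.94% lower, and 51 in DESeq2), and its unadjusted p was 0.00118 for Socs3, 0.0140 for Bcl3 and 0.0273 for Stat3. Stat4 had 99.7 and 97.7 CPM in naive Il6ra-/- libraries and 104 and 99.4 CPM in naive wild-type libraries (interaction 0.72, unadjusted p = 0.000211, adjusted p = 0.515). Of the 351 genes at an unadjusted p under 0.05 in culture and the 1554 in naive cells, 54 were shared, 15.4% of the first and 3.48% of the second, and 21 of these had the same sign.

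The libraries sequenced before transfer set Il6ra-/- Il17f/Thy1.1 cells against Il17f/Thy1.1 (CD45.1) cells, 2 libraries each, grown with hyper-IL-6 at 20 ng/ml, and were fitted apart. There 1 of 14225 genes passed (0.00703%), Eps8l1, and 345 had an unadjusted p under 0.05 (2.43%, 1.29% higher and 1.14% lower). Among the 13055 genes tested in both, 12 were shared between 309 of the culture and 316 of the transfer part, 3.88% and 3.80%, and 2 of these had the same sign. Stat4 had 126 and 248 CPM in Il6ra-/- libraries, against 165 and 275 CPM in wild-type libraries (-0.23 ± 0.33), and Il17a 361 and 68.3 CPM, against 652 and 179 CPM. Kit had 35.9 and 31.3 CPM, against 70.4 and 10.8 CPM, and Pdlim5 56.1 and 15.8 CPM, against 59.2 and 8.87 CPM. At each of these genes the libraries of at least 1 genotype lay further apart than the genotype means.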

How the data were processed

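The values were deposited by the authors as whole-number read counts per gene, 1 file per library. The submitters' processing notes list HTSeq 0.7.2, STAR 2.5.3, R 3.4.3, SAMtools 0.1.18 and DESeq2 1.18.1, with build GRCm38. The annotation release, strand setting and library kit of the culture libraries are not given in the sources used here, so genes that overlap on opposite strands cannot be told apart. Rows for unassigned reads were left out, and 37693 of 39179 gene IDs were named from the annotation supplied.

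The 10 culture libraries were fitted together by group with edgeR 4.0.16 in R 4.3.3 (TMM, filterByExpr with a minimum count of 10, quasi-likelihood test, Benjamini-Hochberg adjustment, threshold 0.05). The test was checked on simulated counts. Alternatives were DESeq2 1.42.0, other scaling, filters and sample sets, a replicate block, and leaving out each library. Named genes were a core set of IL-6 and Th17 genes, genes past the threshold, up to 4 genes of smallest p per list, and naive markers. Others were named after their values were seen, and 1 core gene is not reported here. The comparison, the 27 gene lists and the tests were chosen with earlier results of these data known.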

Additional observations from a re-analysis of the deposited data

How the results depend on the processing

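The number of genes passing between genotypes in culture was 0 in edgeR. It was 74 with no filter on low counts, 3 with DESeq2, 23 with DESeq2 on the 3 cultured groups, 21 with DESeq2 on the compared groups, 4 with DESeq2 without the library labelled Il6ra-/- replicate 2, 2 without that library and wild-type IL-6 replicate 2, and 0 to 1 when each library was left out (the 1 being Cyp1a1, -2.84, without wild-type replicate 2). With the replicate block it was 0 (313 at an unadjusted p under 0.05). The replicate numbers were not shown to pair the libraries (correlation of deviations 0.0318). The DESeq2 sample sets and the settings that leave out doubted libraries were chosen after seeing the data.

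Between naive genotypes the number was 1, against 439 with no filter, 0 with the replicate block, 95 with DESeq2, 5 with the compared groups only, and 0 to 902 when each library was left out. For the interaction it was 0, against 271, 51 with DESeq2, and 0 to 392. Before transfer it was 1, against 17, 26 with DESeq2, 0 with the compared groups only, and 0 to 1152. In the label check, replicate 1 was nearer to naive Il6ra-/- at 0 markers, against 11 and 9 under the looser rules, and replicate 2 at 1, against 7 and 8. The causes were not tested.

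Of 816 fold changes of 48 genes under 17 settings, 739 kept their direction and side of the threshold, 50 newly passed it and 27 reversed, at 8 genes. When each library was left out, log2 fold changes ran from -0.022 to 0.16 for Bcl3, -0.98 to 0.61 for Csf2, -0.97 to 1.08 for Ifng, -1.19 to 0.003 for Il10, -0.53 to 1.22 for Il22, -0.32 to 0.15 for Il6st, -0.047 to 0.21 for Stat3 and -0.42 to 0.93 for Tbx21. Without the library labelled Il6ra-/- replicate 2 and wild-type IL-6 replicate 2, they were -1.20 for Il10, -0.031 for Bcl3, -0.99 for Csf2, -0.98 for Ifng, -0.53 for Il22, 0.14 for Il6st, -0.056 for Stat3 and -0.045 for Tbx21. With DESeq2 without replicate 2 of Il6ra-/-, they were -0.018 for Bcl3, -0.98 for Csf2, -0.97 for Ifng, -0.53 for Il22, 0.15 for Il6st, -0.043 for Stat3 and -0.035 for Tbx21. Each group had 2 libraries.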
